A study of Mus musculus with 2 samples.

Results

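The ion channels of islet hormone secretion were described here as 9 genes, found by their symbols among the 31053 genes of both count matrices. The genes were Kcnj11, Abcc8, Kcnk16, Cacna1a, Cacna1c, Cacna1d, Scn3a, Scn9a and Trpm5. Each symbol matched 1 row, and all 9 genes passed the filter on low counts. The study sequenced dissociated pancreatic islets of wild-type C57BL/6J female mice. The multipara group began the study at 9 weeks of age, went through 3 pregnancies one after another and gave islets 3 weeks after the last delivery, while the virgin group was matched for age and had no pregnancies. Each group was 1 library, so a difference between the groups and a difference between these libraries cannot be told apart. The labels do not say how many mice each library held, and the study states only a minimum for each group.

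Glucose closes the ATP-sensitive potassium channel of the β cell, and the membrane depolarizes. Voltage-gated sodium and calcium channels then open, calcium enters, and insulin granules fuse with the membrane. Background potassium channels hold the membrane back, and calcium-activated cation channels such as Trpm5 push it further. The α, δ and pancreatic polypeptide (PP) cells of the islet are also electrically excitable and use an overlapping set of channels.

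The virgin library held 5463 barcodes with 94853806 unique molecular identifiers (UMIs, each standing for 1 captured transcript) and the multipara library held 5075 with 82503776. The study's cell filter and removal of doublets left 4330 and 3330 cells. Cells were assigned to a type when 1 hormone held at least 80% of the hormone UMIs and at least 5% of all UMIs of the cell. This gave 1040 virgin and 647 multipara α cells, 1855 and 1700 β cells, 191 and 162 δ cells, and 88 and 90 PP cells. In each gate the hormone it was named for held between 19.9% and 58.0% of the UMIs. Median depth was 29815 and 31240 UMIs in β cells and 10469 and 10440 in δ cells. The multipara β cells held more shallow cells, since their 10th percentile of depth was 1752 UMIs against 5132 in the virgin library. Free insulin RNA was also present, with Ins1 and Ins2 at 0.920% to 1.02% of the UMIs of virgin endothelial, immune and mesenchymal cells and at 1.67% to 3.13% in the multipara library. Of the barcodes, 17.8% of the virgin and 30.5% of the multipara ones had failed on mitochondrial UMIs. Without the cell filter the β gates held 2311 virgin and 3128 multipara barcodes, beside 1855 and 1700 with it. The α gates then held 1096 and 688, beside 1040 and 647. Each gate held all genes of its own marker list but for Lepr in multipara δ cells. The libraries shared 7 barcodes.

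Levels are given as counts per 1000000 UMIs (CPM) after TMM scaling, which sets the bulk of genes equal across the 8 sums of 4 cell types and 2 libraries. Their 95% intervals are exact Poisson intervals, which cover counting error only. The differences between cell types were tested with edgeR's quasi-likelihood test, with the library as a block and with p-values adjusted by Benjamini-Hochberg over 12098 genes. The block takes out the shift between the libraries that the cell types share. What remains is how the differences between types vary between the 2 libraries, with 3 residual degrees of freedom. The test draws this spread toward that of other genes, with a prior of 21.5 degrees of freedom, so the pooled spread had the greater weight. The p-values do not measure the spread between libraries of the same group. The levels of the 9 genes are shown by cell type and library in the plot that follows.

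**Figure D1:**
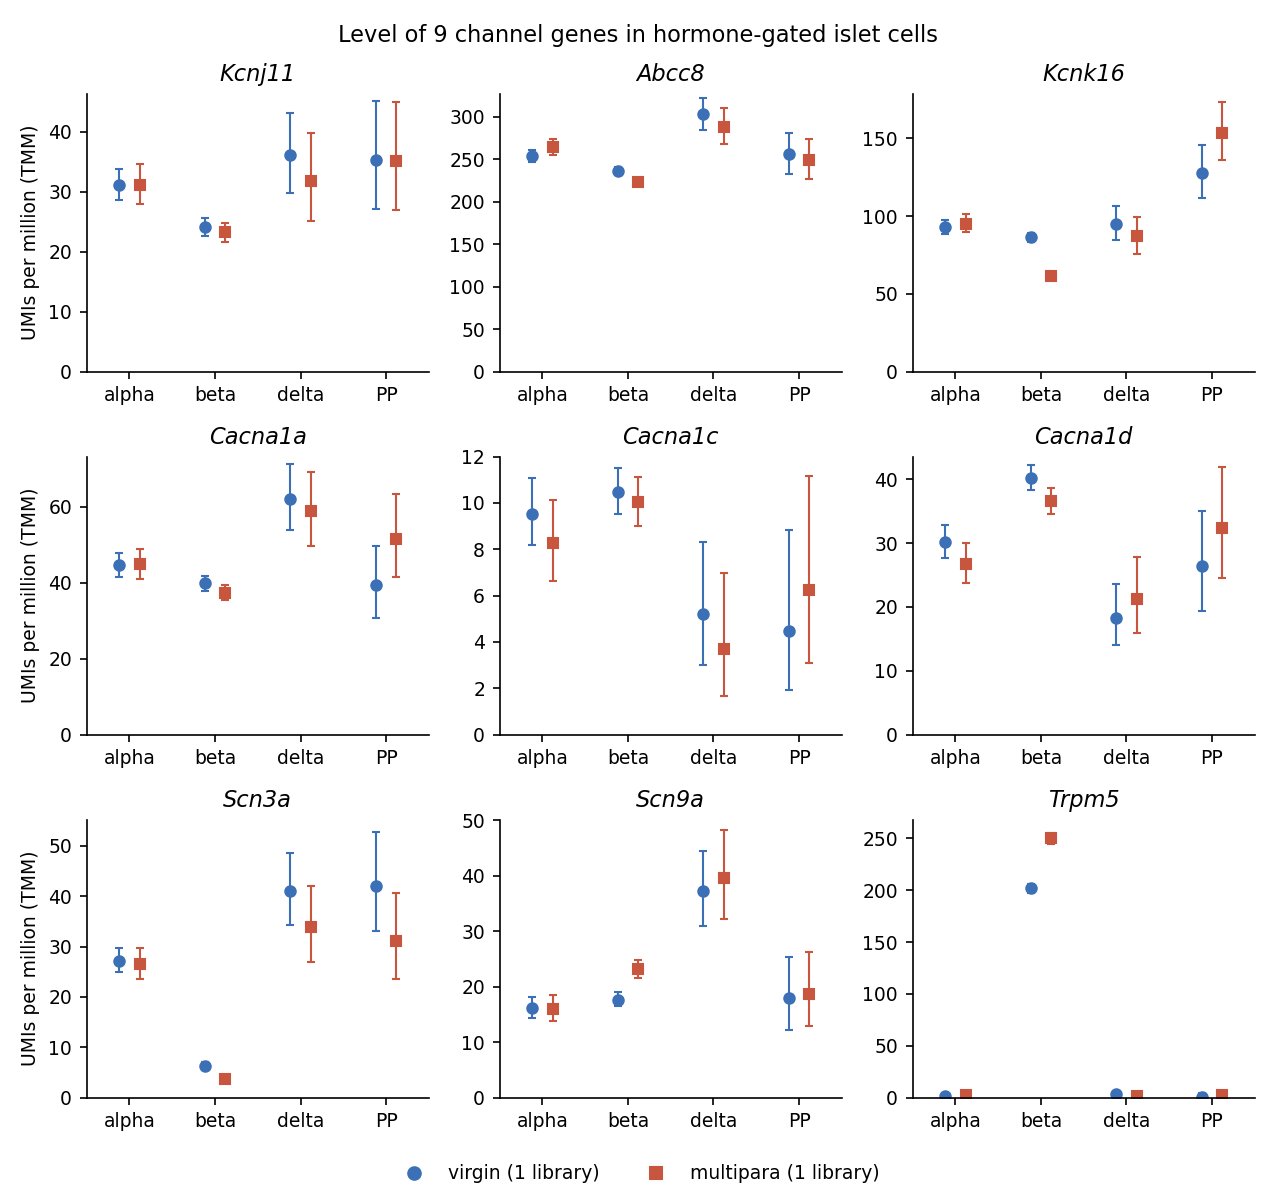
Level of each channel gene (y axis, CPM after TMM scaling) in α, β, δ and PP cells (x axis); circles are the virgin library and squares the multipara library, and bars are 95% Poisson counting intervals. Trpm5 stood at 202 and 250 in β cells and at no more than 3.97 in the other types, Scn3a was lowest in β cells at 6.29 and 3.66, and the δ cells held the highest level of Scn9a.

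Most of the channel genes differed between β cells and the other endocrine cells, in both directions. Against α cells, 3 members were higher in β cells (Cacna1d, Scn9a and Trpm5), 4 were lower (Kcnj11, Abcc8, Cacna1a and Scn3a) and 2 did not pass the test. This comparison called 55.7% of all genes (28.5% higher and 27.2% lower), so a call was common among all genes as well. Against δ cells, 3 were higher (Cacna1c, Cacna1d and Trpm5), 5 were lower and only Kcnk16 did not pass, beside 46.0% of all genes called, with 23.0% higher and 23.0% lower. Against PP cells, 3 were higher, 3 were lower and 3 did not pass, beside 36.4% of all genes, with 18.9% higher and 17.5% lower. The median size of the difference over the members, on the log2 scale and without sign, was 0.36 against α cells, 0.93 against δ cells and 0.57 against PP cells, where the medians over all genes were 0.42, 0.46 and 0.46. Among the other types, 2 members were higher and 4 lower in α than in δ cells, beside 32.9% of all genes called (16.1% higher and 16.8% lower). In δ cells 3 were higher and 1 lower than in PP cells, beside 18.0% (8.65% higher and 9.33% lower). Between α and PP cells edgeR called 0 members, beside 14.9% of all genes (7.13% higher and 7.79% lower). At an unadjusted p under 0.05 it gave 3 (Kcnk16, Cacna1c and Scn3a), and DESeq2 called 1 (Kcnk16, adjusted p = 0.0225).

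The scaling matters to the sign of small differences. Without TMM scaling, on plain CPM, the median gene shifted by −0.42 between β and α cells, by −0.93 between β and δ cells, by −0.10 between β and PP cells, by −0.50 between α and δ cells, by 0.31 between α and PP cells and by 0.83 between δ and PP cells. Higher calls then made up 20.1% of the calls between β and α cells (51.1% with TMM), 6.25% between β and δ cells (49.96%), 39.0% between β and PP cells (51.9%), 9.20% between α and δ cells (49.0%), 85.2% between α and PP cells (47.8%) and 96.9% between δ and PP cells (48.1%). With hormone UMIs left out of the library size, they made up 69.3% between β and α cells, 20.9% between α and δ cells, 25.02% between α and PP cells and 63.4% between δ and PP cells. Differences and ratios below are relative to the median gene under TMM, unless plain CPM, thinned cells or another setting is named.

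**Figure D2:**
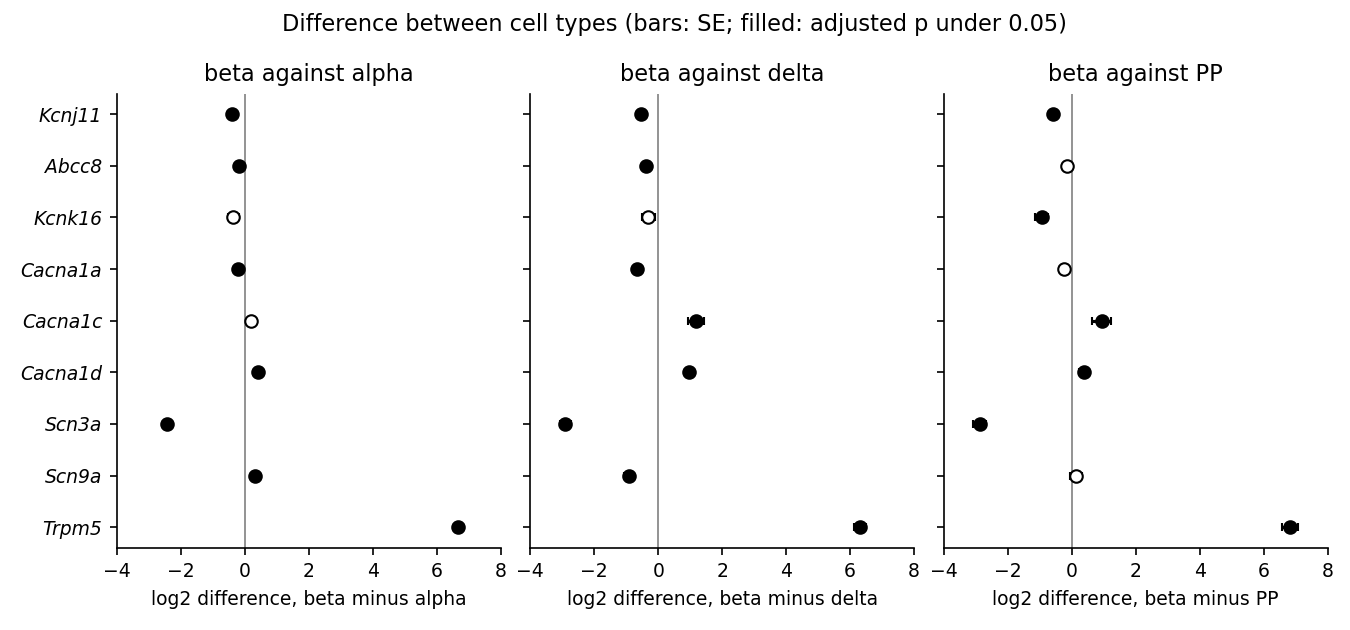
Log2 difference in level between β cells and α, δ or PP cells (x axis) for each channel gene (y axis); points are edgeR estimates over both libraries, bars are standard errors, and filled points passed an adjusted p of 0.05. Trpm5 lay beyond 6 on the log2 scale in all 3 panels and Scn3a beyond −2, while the other genes lay between −0.94 and 1.18.

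The ATP-sensitive potassium channel is built from Kcnj11, its pore, and Abcc8, the sulfonylurea receptor that regulates it. On GRCm38 the genes are neighbours on the minus strand of chromosome 7, with Kcnj11 at chr7:46093953-46100764 and Abcc8 at chr7:46104523-46180033, 3758 bases apart. Both were expressed in all 4 endocrine types and scarce elsewhere: Kcnj11 was at 0 to 2.03 plain CPM in endothelial, immune and mesenchymal cells of either library, and Abcc8 at 10.2 to 20.9.

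Kcnj11 was lowest in β cells. It stood at 24.1 (95% interval 22.7 to 25.7) in virgin and 23.2 (21.7 to 24.9) in multipara β cells. The levels were 31.1 and 31.2 in α cells, 36.1 and 31.9 in δ cells, and 35.4 and 35.2 in PP cells. Every β value lay below every value of the other types. The log2 difference was −0.39 ± 0.09 (SE) against α cells (edgeR adjusted p = 0.000733), −0.53 ± 0.12 against δ cells (adjusted p = 0.000859) and −0.57 ± 0.14 against PP cells (adjusted p = 0.00188). The call against α cells was lost with hormone UMIs left out of the library size (−0.19, adjusted p = 0.0800) and with sums thinned to the smallest (adjusted p = 0.292), that against δ cells with the 95% gate (adjusted p = 0.519) and thinned sums (adjusted p = 0.115), and that against PP cells with thinned sums (adjusted p = 0.146). The order was PP, δ, α and β, in which only the step from α to β passed the test. Between δ and PP cells the log2 difference of −0.05 turned to 0.77 on plain CPM, less than the 0.83 shift of the median gene.

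Abcc8 had the same low place in β cells with a smaller difference. Its level was 236 and 223 in virgin and multipara β cells, 254 and 264 in α cells, 256 and 249 in PP cells, and 303 and 288 in δ cells. No δ value overlapped another type. The difference between β and δ cells was −0.37 ± 0.06 on the log2 scale (edgeR adjusted p = 3.05e-05), and δ cells were also above α cells (adjusted p = 0.0212) and PP cells (adjusted p = 0.0266). The difference between β and α cells was −0.17 ± 0.06 (adjusted p = 0.0138), which was lost and turned to 0.03 with hormone UMIs left out of the library size (adjusted p = 0.685). PP and β cells did not pass the test (adjusted p = 0.108). For each Kcnj11 UMI there were 9.76 and 9.61 Abcc8 UMIs in β cells, 8.14 and 8.47 in α cells, 8.39 and 9.05 in δ cells, and 7.24 and 7.10 in PP cells. Gm45487, a gene on the same strand, overlaps Abcc8, and the split of reads between them is uncertain.

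Kcnk16 encodes a background potassium channel of the 2-pore-domain family known from pancreatic islets. The gene lies on the minus strand at chr14:20261376-20269199 of GRCm38. It was measured at 86.4 (83.6 to 89.3) in virgin and 61.4 (58.8 to 64.0) in multipara β cells. In α cells it stood at 93.1 and 95.2, in δ cells at 95.1 and 87.0, and in PP cells at 128 and 154. The β values lay below all others, by little in the virgin library, and the multipara β cells stood apart from the virgin ones by more than their counting intervals. PP cells were higher than β cells by 0.94 ± 0.19 on the log2 scale (edgeR adjusted p = 0.0154). The difference between β and α cells did not pass (−0.36 ± 0.16, adjusted p = 0.123), and its value was −0.11 within the virgin library and −0.63 within the multipara library. Likewise β and δ cells did not pass (adjusted p = 0.259). In endothelial, immune and mesenchymal cells Kcnk16 was at 0 to 3.06 plain CPM.

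Among the members, 5 matched entries in the promoter sequences of RefSeq (GRCm38.p6), with 8 promoters; Kcnj11, Abcc8, Cacna1a and Scn3a did not. The 250 bases before the start are printed for Kcnk16, whose level was lower in multipara than in virgin β cells, and for Trpm5, whose level was far above the other endocrine types in β cells. They are read 5′ to 3′ on the minus strand, from chr14:20269270-20269519 and chr7:143094643-143094892, with capitals marking a motif match. The motifs searched on both strands were the TATA box (TATAAA), the CCAAT box, the GC box (GGGCGG), the cAMP response element (TGACGTCA), a forkhead motif (TGTTTAC), a MAF motif (TGCTGAC), a homeobox core (TAATTA) and an E box (CAGATG). Of 32851 promoters of this length they were found in 12.4%, 33.8%, 32.7%, 1.55%, 3.17%, 3.81%, 4.84% and 14.4%, in that order.
Kcnk16: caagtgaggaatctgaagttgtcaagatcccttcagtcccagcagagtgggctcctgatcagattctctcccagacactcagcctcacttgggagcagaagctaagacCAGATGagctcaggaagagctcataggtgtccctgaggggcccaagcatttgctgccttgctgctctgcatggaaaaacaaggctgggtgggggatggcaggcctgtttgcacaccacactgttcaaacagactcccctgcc
Trpm5: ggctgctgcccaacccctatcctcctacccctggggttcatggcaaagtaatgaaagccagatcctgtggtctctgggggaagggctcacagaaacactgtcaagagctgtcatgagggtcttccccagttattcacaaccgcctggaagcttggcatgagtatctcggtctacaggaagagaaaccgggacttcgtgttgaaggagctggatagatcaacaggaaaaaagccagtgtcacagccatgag
Kcnk16 held CAGATG once, and none of the 8 motifs was in the Trpm5 window. Their GC content was 54.8% and 52.8%, beside a median of 52.4% over all promoters, with 0 and 4 CpG pairs beside a median of 6. A match in these letters is a description and not a binding site.

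The voltage-gated calcium channels divided into genes that were highest in β cells and a gene that was highest in δ cells. Cacna1c and Cacna1d encode pores of L-type channels, which carry the calcium current that triggers granule release in β cells, and Cacna1a encodes the pore of the P/Q type. On GRCm38 they lie at chr6:118587240-119196418 (minus strand), chr14:30039939-30491455 (minus strand) and chr8:84388440-84640246 (plus strand). Gm18981 overlaps Cacna1c and Gm18072 overlaps Cacna1d on the same strand, so their counts could share reads.

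Cacna1d stood at 40.2 and 36.6 in virgin and multipara β cells, at 30.2 and 26.7 in α cells, at 26.4 and 32.3 in PP cells, and at 18.3 and 21.2 in δ cells. The β values were above all others and the δ values below all others. The log2 difference of β cells was 0.43 ± 0.10 from α cells (edgeR adjusted p = 0.000545), 0.97 ± 0.14 from δ cells (adjusted p = 3.20e-06) and 0.39 ± 0.15 from PP cells (adjusted p = 0.0432). On plain CPM the first was 0.004 and the second 0.02, neither of them called, where the median gene moved by −0.42 and −0.93. The call against PP cells was kept in 7 of 16 alternative tests. The α cells also exceeded the δ cells (0.54 ± 0.15, adjusted p = 0.00605), and the δ cells were below the PP cells (−0.58 ± 0.19, adjusted p = 0.0352), a difference that became 0.23 on plain CPM.

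Cacna1c rested on few UMIs in the rarer types, with 17 and 9 in virgin and multipara δ cells and 8 and 11 in PP cells. Its level was 10.5 and 10.0 in virgin and multipara β cells, 9.54 and 8.25 in α cells, 5.20 and 3.68 in δ cells, and 4.49 and 6.24 in PP cells. β cells were higher than δ cells by 1.18 ± 0.25 on the log2 scale (edgeR adjusted p = 0.000377) and higher than PP cells by 0.94 ± 0.29 (adjusted p = 0.0129). The call against δ cells was lost on plain CPM (0.24, adjusted p = 0.444), with the 95% gate (adjusted p = 0.0948) and with thinned sums (adjusted p = 0.102). That against PP cells was lost with DESeq2 (adjusted p = 0.0708), and in edgeR with thinned cells (adjusted p = 0.529) and thinned sums (adjusted p = 0.290). β cells did not differ from α cells past the threshold (0.20 ± 0.14, edgeR adjusted p = 0.220). The gene was not particular to endocrine cells. It stood at 30.2 and 41.7 plain CPM in virgin and multipara mesenchymal cells, on 18 and 8 UMIs, beside 8.32 and 7.51 in β cells on the same scale. The mesenchymal marker list was at 1.90 and 6.41 plain CPM in the β gate, beside 15728 and 11536 in the mesenchymal cells.

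Cacna1a was highest in δ cells, at 62.0 in virgin and 58.8 in multipara cells. It stood at 39.8 and 37.3 in β cells, 44.6 and 44.8 in α cells, and 39.3 and 51.6 in PP cells. No other type reached the δ values. β cells were below δ cells by 0.65 on the log2 scale (−0.65 ± 0.11, edgeR adjusted p = 1.96e-05), α cells were also below them (−0.44 ± 0.11, adjusted p = 0.00313), and δ cells exceeded PP cells (0.42 ± 0.14, adjusted p = 0.0421). The difference between β and α cells was small (−0.21 ± 0.09, adjusted p = 0.0478) and was called in 8 of 16 alternative tests. Weighting every cell equally turned it to 0.34, and turned that between β and δ cells to 0.03. Mesenchymal cells held Cacna1a at 23.5 and 20.9 plain CPM, on 14 and 4 UMIs, with 3.83 to 5.92 in endothelial and immune cells.

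Of the sodium channel genes, Scn3a was lowest in β cells, and Scn9a was highest in δ cells with β cells well below them. Scn3a and Scn9a encode pore subunits of voltage-gated sodium channels, which carry the fast upstroke of the action potential. Both lie on the minus strand of chromosome 2, at chr2:65457118-65567627 and chr2:66480080-66634962 of GRCm38. Gm13627 overlaps Scn9a on the same strand.

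Scn3a was low in β cells and present in every other endocrine type. Its level was 6.29 (5.56 to 7.10) in virgin and 3.66 (3.05 to 4.35) in multipara β cells. It was 27.2 and 26.5 in α cells, 41.0 and 33.9 in δ cells, and 42.1 and 31.2 in PP cells. All β values were far below the rest. The log2 difference was −2.43 ± 0.14 against α cells (edgeR adjusted p = 3.37e-12), −2.91 ± 0.17 against δ cells (adjusted p = 2.25e-11) and −2.88 ± 0.21 against PP cells (adjusted p = 5.03e-10), and all 16 alternative tests called each of these. α cells were below δ cells (−0.48 ± 0.16, adjusted p = 0.0229), whereas δ and PP cells were not separated (adjusted p = 0.955). In endothelial, immune and mesenchymal cells Scn3a reached at most 1.68 plain CPM, on 0 or 1 UMI each. The β gates stood at 4.996 and 2.74 on that scale, on 263 and 129 UMIs.

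To take out depth, every cell was thinned to 5000 UMIs. Too shallow for this were 183 virgin and 303 multipara β cells, 85 and 35 α cells, 2 and 9 δ cells, 5 and 1 PP cells, and 147 and 72 endothelial cells. Scn3a then had a UMI in 2.45% (95% Clopper-Pearson interval 1.77 to 3.31) of virgin and 1.36% (0.821 to 2.12) of multipara β cells. The share was 13.9% and 13.1% in α cells, 25.4% and 24.8% in δ cells, and 19.3% and 11.2% in PP cells. In virgin endothelial cells it was 1.05% (0.0266 to 5.73), whose interval holds the virgin β share, and of 113 multipara endothelial cells none had one, which allows up to 2.65% when a count of 0 is taken to allow 3 counts, a limit that covers counting error only. Without thinning, 10.8% and 6.71% of β cells had a UMI. Against the other hormones' UMIs, there were 3.56 and 2.57 Scn3a UMIs for every 1000 Gcg UMIs in the virgin and multipara β gates, beside 0.0782 and 0.0674 in the α gates. Measured against Sst they numbered 3.77 and 4.24 per 1000, beside 0.317 and 0.220 in the δ gates.

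Scn9a was highest in δ cells, at 37.3 (31.0 to 44.5) in virgin and 39.6 (32.1 to 48.3) in multipara cells. It stood at 17.7 and 23.2 in β cells, at 16.2 and 16.1 in α cells, and at 18.0 and 18.7 in PP cells. The δ values did not overlap those of another type. δ cells exceeded β cells by 0.93 on the log2 scale (−0.93 ± 0.13 for β minus δ, edgeR adjusted p = 2.40e-06), α cells lay 1.24 below them (−1.24 ± 0.14, adjusted p = 1.10e-07) and PP cells were 1.07 ± 0.20 below them (adjusted p = 0.000286). Each of the 16 alternative tests called all of these. The difference between β and α cells was 0.32 ± 0.11 (adjusted p = 0.0172), turned to −0.11 on plain CPM, and was 0.12 within the virgin and 0.53 within the multipara library. In the non-endocrine cells Scn9a had 1 UMI in all.

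Trpm5 encodes a cation channel that calcium opens from inside the cell, known from taste cells and β cells. It lies on the minus strand at chr7:143069153-143094642 of GRCm38. Its level was 202 (198 to 206) in virgin and 250 (245 to 256) in multipara β cells, on 8436 and 8826 UMIs. It was 1.73 and 2.78 in α cells, 3.97 and 1.23 in δ cells, and 1.12 and 2.84 in PP cells, on 2 to 31 UMIs each. The β level was thus separated from every other value by more than any counting interval. β cells exceeded α cells by 6.68 ± 0.15, δ cells by 6.31 ± 0.20 and PP cells by 6.83 ± 0.24 on the log2 scale (edgeR adjusted p = 1.17e-16, 5.00e-14 and 4.84e-13), and all 16 alternative tests called the 3 differences. Within the virgin library the ratio of β to α cells was 117-fold (exact interval 82.2 to 172) and within the multipara library 90.0-fold (63.4 to 133).

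The Trpm5 UMIs of the other endocrine cells were few and are set here beside those of non-endocrine cells. On plain CPM, α, δ and PP cells held 0.991 to 6.10 and endothelial, immune and mesenchymal cells held 0 to 10.4. The value of 10.4 rests on 2 UMIs of multipara mesenchymal cells. Within the virgin library, δ cells at 6.10 were above all non-endocrine cells, at 0 to 4.59. The source of these UMIs was not tested. In thinned cells, 49.2% (46.8 to 51.6) of virgin and 58.0% (55.3 to 60.6) of multipara β cells had a Trpm5 UMI at 5000 UMIs a cell. Without thinning the shares were 83.2% and 79.2%. Among thinned α cells the share was 0.733% and 1.63%, and among immune cells 0.658% and 4.17%. Of 83 virgin PP cells none had one, which by the same limit of 3 counts allows a share of up to 3.61%. For every 1000 insulin UMIs there were 0.283 and 0.323 Trpm5 UMIs in the virgin and multipara β gates and 0.356 (0.242 to 0.506) and 0.318 (0.216 to 0.452) in the α gates. The virgin δ gate, at 0.924 (0.492 to 1.58) on 13 UMIs, was above the β ratio, and the multipara δ gate, at 0.132 (0.0272 to 0.385) on 3 UMIs, was not.

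**Figure D3:**
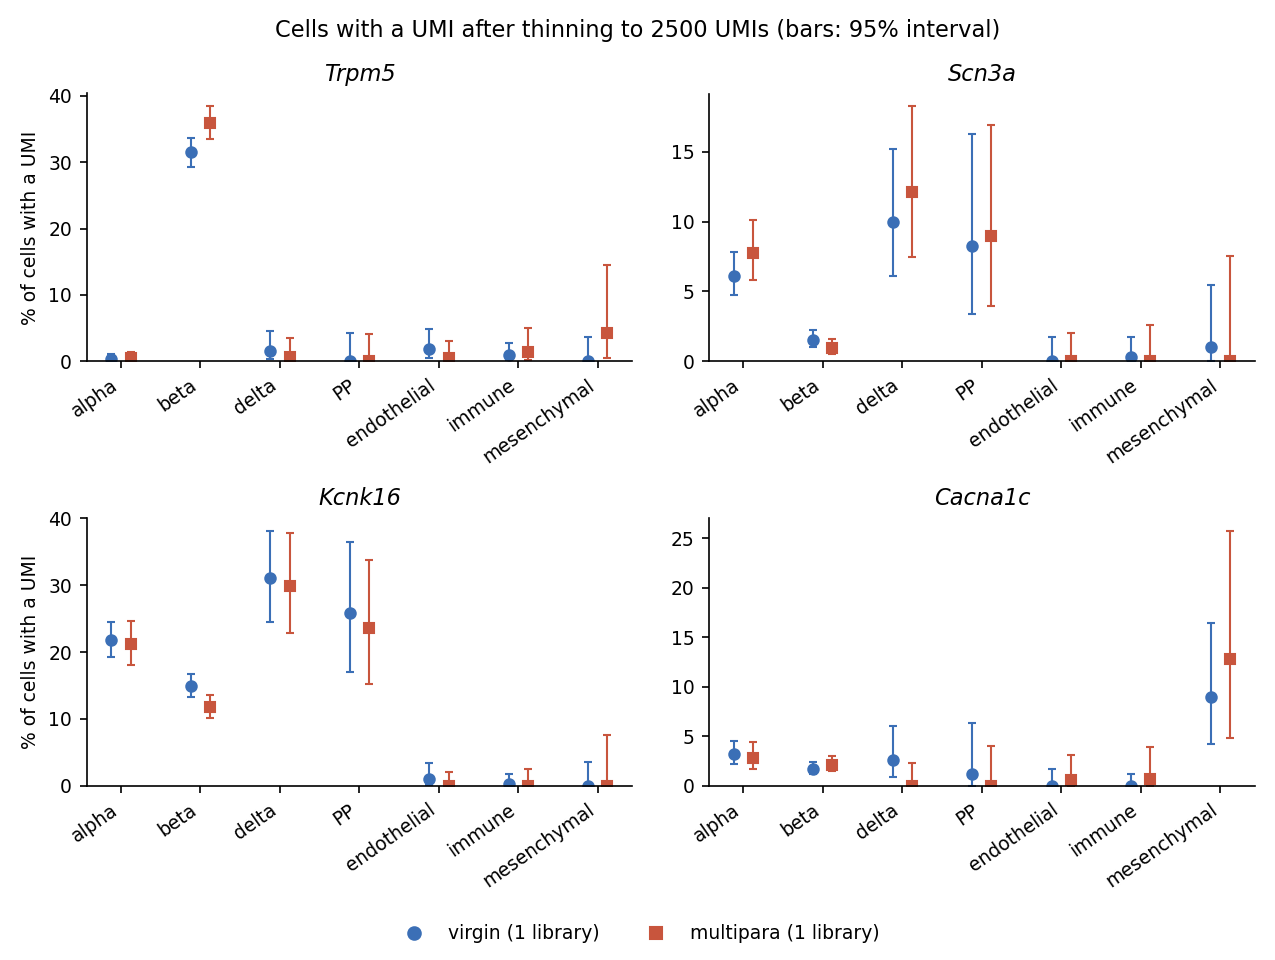
Percent of cells with a UMI of Trpm5, Scn3a, Kcnk16 or Cacna1c (y axis) after thinning to 2500 UMIs, in the 4 endocrine gates and in endothelial, immune and mesenchymal cells (x axis); circles are the virgin and squares the multipara library, and bars are 95% Clopper-Pearson intervals. Trpm5 was found in 31.5% and 35.9% of β cells, Kcnk16 in all 4 endocrine types, and Cacna1c most often in mesenchymal cells at 9% and 12.8%.

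The comparison of multipara with virgin cells asks whether repeated pregnancy left a mark on these channels. It has 1 library a side and no test. Ratios are given on the log2 scale with exact intervals that cover counting error only. In β cells the intervals of 6 members excluded 0, in α and δ cells those of none, and in PP cells that of Kcnk16. The total depth of the gates differed, and the β gates held the most UMIs and so the narrowest intervals. The share of all genes with an interval that excludes 0 was not counted. These counts therefore do not set the members apart from other genes, nor β cells from other types. A change of at least 1.5-fold from the median gene was counted among genes with at least 50 UMIs.

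**Figure D4:**
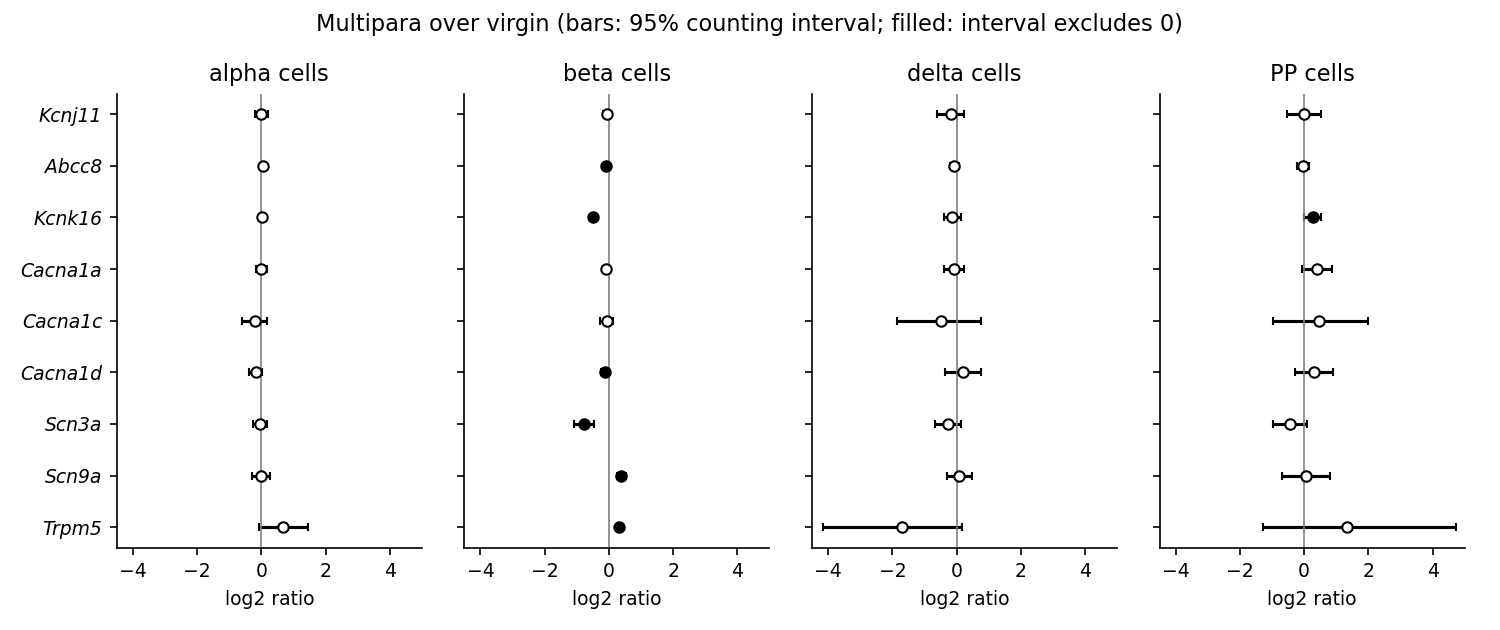
Log2 ratio of multipara over virgin level (x axis) for each channel gene (y axis) in α, β, δ and PP cells; each point compares 1 library with 1 library, bars are exact 95% counting intervals, and filled points have intervals that exclude 0. In β cells Scn3a lay at −0.78 and Kcnk16 at −0.49, with Scn9a at 0.39 and Trpm5 at 0.31.

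In β cells 1 member was past the 1.5-fold limit and lower (Scn3a), beside 3.75% of all genes, and none was past it and higher, beside 3.93%. Scn3a had 263 UMIs in virgin and 129 in multipara β cells, a log2 ratio of −0.78 (−1.10 to −0.47). Only 2.04% of genes had a lower ratio. Hormone UMIs of the other endocrine types were also lower in the multipara β gate. Sst went from 0.133% to 0.0645% of β UMIs, Ppy from 0.104% to 0.0490% and Gcg from 0.140% to 0.107%. The marker list of δ cells (5 genes, all seen) went from 1430 to 694 plain CPM and that of α cells (7 genes, all seen) from 2261 to 1636. The part of these UMIs in the result was not tested. With the gate raised to 95% of hormone UMIs, Sst held 0.0116% of virgin and 0.0174% of multipara β UMIs. Gcg still fell from 0.0939% to 0.0608% and Ppy from 0.0383% to 0.0252%. This gate thus left Gcg and Ppy unequal between the libraries. The Scn3a ratio in β cells was −0.62 under it. Without this change of gate, the Scn3a ratio was −0.27 (−0.69 to 0.13) in δ cells, −0.43 (−0.96 to 0.09) in PP cells and −0.04 (−0.25 to 0.17) in α cells.

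Kcnk16 had 3612 virgin and 2164 multipara UMIs in β cells, a log2 ratio of −0.49 (−0.57 to −0.42), with 4.80% of genes lower. Its ratio was 0.03 (−0.08 to 0.15) in α cells and −0.13 (−0.39 to 0.13) in δ cells. The β interval lay below both, by little for δ cells. These intervals cover counting error only, and the differences between the ratios were not tested. In PP cells it was 0.26 (0.005 to 0.52). In cells thinned to 5000 UMIs, Kcnk16 had a UMI in 29.4% (27.2 to 31.7) of virgin and 21.8% (19.7 to 24.1) of multipara β cells, and in 39.9% and 38.2% of α cells. Without thinning, the β shares were 74.5% and 58.3%. The share in PP cells was 47.0% (35.9 to 58.3) and 37.1% (27.1 to 48.0), a direction opposite to that of the PP level. Thinning also turned the PP ratio to −0.40.

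The multipara β cells were higher in Scn9a and Trpm5. Scn9a rested on 739 virgin and 817 multipara UMIs and had a log2 ratio of 0.39 (0.24 to 0.53), with 93.1% of genes lower. Trpm5 had a ratio of 0.31 (0.27 to 0.35), with 90.1% of genes lower. Neither was past 1.5-fold. Scn9a was at −0.02 (−0.29 to 0.26) in α cells and 0.09 (−0.31 to 0.48) in δ cells, whose intervals overlap that of β cells. In α cells Trpm5 was the only member past 1.5-fold, at 0.68 on 31 UMIs in each library with an interval that includes 0 (−0.08 to 1.45), beside 1.75% of genes higher and 2.63% lower. Insulin UMIs went from 0.519% to 0.872% of the α UMIs alongside, and their part in this value was not tested.

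The remaining members were near the median gene in β cells. Cacna1d was at −0.14 (−0.24 to −0.03) and Abcc8 at −0.08 (−0.12 to −0.04). The ratios of Kcnj11 at −0.06 (−0.19 to 0.08), Cacna1a at −0.09 (−0.20 to 0.01) and Cacna1c at −0.06 (−0.27 to 0.14) had intervals that include 0, which leaves room for a change of up to these bounds. In δ cells no member with 50 or more UMIs was past 1.5-fold, beside 2.92% of genes higher and 3.46% lower, and in PP cells none was, beside 2.74% and 3.45%. Cacna1c and Trpm5 had too few UMIs in both types. Cacna1a in PP cells was at 0.39 (−0.07 to 0.86), on 70 and 91 UMIs.

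The 4 larger ratios in β cells kept their sign in all 14 alternatives. They ranged from −0.67 to −0.39 for Kcnk16, from −0.87 to −0.62 for Scn3a, from 0.20 to 0.51 for Scn9a and from 0.23 to 0.39 for Trpm5. Endothelial markers stood at 7.85 and 27.8 and immune markers at 35.2 and 98.7 plain CPM in the virgin and multipara β gates. With cells carrying such markers left out, the ratios were −0.47 for Kcnk16, −0.64 for Scn3a, 0.45 for Scn9a and 0.31 for Trpm5.

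Shallow β cells differed from deep ones. Among virgin β cells 183 had under 5000 UMIs, with a median of 1743, and among multipara β cells 303 had, with a median of 1515. In these cells Kcnk16 was at 167 (129 to 213) plain CPM in the virgin library and at 24.8 (13.2 to 42.5) among multipara cells. Cacna1a went the other way, from 55.8 (34.96 to 84.5) to 141 (111 to 177). Trpm5 was at 157 (121 to 202) in shallow virgin and 122 (94.2 to 156) in shallow multipara cells, a direction opposite to that over all β cells, though the intervals overlap. Scn9a was at 40.6 and 38.2 in the shallow cells. The deeper cells held Kcnk16 at 67.9 and 46.2, Cacna1a at 31.4 and 26.7, Trpm5 at 160 and 188, and Scn9a at 13.8 and 17.1. Plain CPM is not scaled to the median gene. In multipara cells Abcc8 (287 in shallow, 166 in deeper cells), Cacna1d (99.3 and 26.6) and Cacna1c (38.2 and 7.17) were also higher in shallow cells. Kcnk16 and Trpm5 were lower there. On cells of at least 5000 UMIs alone the log2 ratios were −0.46 for Kcnk16, −0.13 for Cacna1a, −0.77 for Scn3a, 0.41 for Scn9a and 0.33 for Trpm5. The ratio of Cacna1a was −0.09 over all β UMIs and 0.72 with every cell weighted equally.

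**Figure D5:**
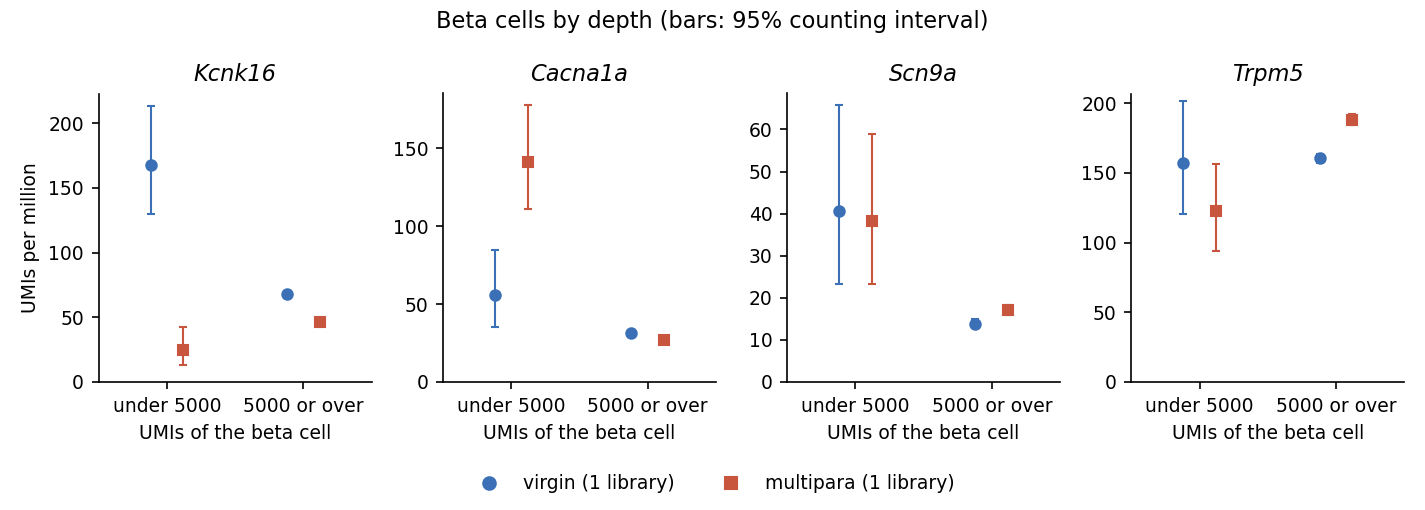
Level of Kcnk16, Cacna1a, Scn9a and Trpm5 (y axis, plain CPM) in β cells with under 5000 UMIs and with 5000 or more (x axis); circles are the virgin and squares the multipara library, and bars are 95% Poisson counting intervals. Shallow multipara β cells held little Kcnk16 (24.8) and much Cacna1a (141), whereas for these genes the deeper cells of the libraries lay closer together.

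Nupr1, a stress-response gene, split the β cells further, as a description chosen after the data were seen. At 5000 UMIs a cell, 349 of 1672 virgin and 668 of 1397 multipara β cells had a Nupr1 UMI. Kcnk16 stood at 66.5 (54.9 to 79.7) CPM in virgin and 43.7 (36.9 to 51.4) in multipara cells with Nupr1, and at 73.6 (67.2 to 80.5) and 58.4 (50.9 to 66.8) in cells without it. Multipara values were thus lower on both sides of the split. Trpm5 was at 195 (175 to 217) and 213 (198 to 230) in virgin and multipara cells with Nupr1, intervals that overlap. In those without it stood at 144 (135 to 153.0) and 166 (153.3 to 180), intervals that barely part. Scn9a was at 12.03 (7.45 to 18.4) and 16.5 (12.4 to 21.4) with Nupr1 and at 16.6 (13.7 to 20.04) and 17.3 (13.3 to 22.1) without, so all these intervals overlap. Scn3a was at 2.29 and 1.497 with Nupr1, on 4 and 5 UMIs, and at 5.74 and 4.39 without.

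Other genes of the stimulus-secretion pathway put these members in context, counted by lists that leave the members out. Their counts are to be read against the 55.7%, 46.0% and 36.4% of all genes called in β cells against α, δ and PP cells, and their medians against 0.005 and 0.02 on the log2 scale over all genes, for α and δ cells. Of 36 other potassium channel genes 22 were tested, and in β cells 5 were higher and 8 lower than in α cells, and 5 higher and 11 lower than in δ cells. Against PP cells they counted 5 and 9. Those called made up 59.1%, 72.7% and 63.6% of the list, and its median was −0.005 against α and −0.88 against δ cells. Kcnf1, Kcnj12 and Kcnj3 had the most extreme values against α cells. Kcnf1 averaged 4.41 in β cells (2.87 virgin, 5.95 multipara) and 0.0279 in α cells, and Kcnj12 averaged 5.16 and 0.0727. Every α value of both genes lay below the level of 3 counts, which is 0.167 in the virgin and 0.269 in the multipara α gate. The size of these differences is therefore uncertain. Kcnj3, a G-protein-gated potassium channel, went the other way (log2 difference −5.93) and stood at 10.7 and 10.9 in α cells and at 0.215 and 0.113 in β cells. Against δ cells these were Kcnj12 and Kcnh6, which had no UMI in either δ gate, and Kcnc2 (−5.95). Kcnj12 was at 5.72 and 4.59 in β cells and Kcnh6 at 3.06 and 1.96. A count of 0, taken to allow 3 counts in a library, allows up to 0.917 in the virgin and 1.23 in the multipara δ gate.

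Among 12 tested calcium channel genes of 17, β cells were higher in 3 and lower in 6 against α cells, higher in 1 and lower in 10 against δ cells, and higher in 1 and lower in 5 against PP cells. Those called made up 75%, 91.7% and 50%, with medians of −0.71 and −2.75. The extremes were Cacng4 (−4.77), Cacna2d3 (−2.74) and Cacna1e (−2.37) against α cells and Cacna2d3 (−6.04), Cacna2d2 (−5.71) and Cacna1i (−5.35) against δ cells. Cacna2d2, an auxiliary subunit, averaged 0.722 in β cells and 39.2 in δ cells. Of 8 tested sodium channel genes of 14, none was higher and 5 were lower against α cells, 5 were lower against δ cells, and none was higher and 5 were lower against PP cells. The median was −0.85 against α and −0.75 against δ cells. The auxiliary subunit Scn3b lay at −2.30 against α and −5.04 against δ cells. Scn2b was at −3.89 and −4.09, and Scn2a at −2.19 against α cells.

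TRP channel genes other than Trpm5 were mostly scarce, with 8 of 20 tested. In β cells 2 were higher and none lower than in α cells (Trpm3 at 4.54 and Trpm4 at 1.24), none was higher and 5 were lower than in δ cells, and 1 was higher and none lower than in PP cells. The medians were 0.67 and −0.41 against α and δ cells. Trpa1 (−6.04), Trpc5 (−4.47) and Trpm3 (−0.98) led the genes lower than in δ cells. Trpm4, the closest relative of Trpm5, averaged 14.7 in β and 6.09 in α cells. Of 11 tested chloride and HCN channel genes, 3 were higher and 3 lower against α cells, 2 and 4 against δ cells, and 1 and 2 against PP cells. Those called made up 54.5% against α and δ cells alike, with medians of −0.08 and −0.007. The pacemaker channel Hcn4 was higher against α (3.13) and δ cells (1.07), and Lrrc8b was lower against both, at an average of 0.860 in β, 2.48 in α and 9.18 in δ cells. Lrrc8a was at 0.51 against α cells.

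Lists of genes around the channels were counted in the same way. Of 16 glucose-sensing genes 9 were higher and 3 lower in β than in α cells, 8 and 3 against δ cells, and 7 and 5 against PP cells, led by the glucose transporter Slc2a2 (6.42 against α and 6.37 against δ cells), G6pc2 (5.60 and 6.46) and Pcx (2.33 and 3.23). The medians were 0.50 and 0.23 against α and δ cells. Calcium stores and pumps counted 6 higher and 5 lower of 17 against α cells, 3 and 8 against δ cells, and 5 and 3 against PP cells. Those called made up 64.7% against α cells, and the median was 0.002, near that of all genes, with −0.10 against δ cells. The pump Atp2a2 was higher in β cells (2.48 and 2.41), as was the calcium release channel Itpr2 (3.91 and 3.45), with Itpr1 lower (−2.61 and −2.55). Of 25 exocytosis genes 12 were higher and 5 lower against α cells, 13 and 7 against δ cells, and 9 and 5 against PP cells. The medians were 0.13 and 0.38 against α and δ cells. Sytl4 (5.90 and 5.93), Exph5 (2.07) and Rab3a (1.57) led against α cells, with Cadps (6.20) and Rims1 (−3.68) against δ cells. Between multipara and virgin β cells, no glucose-sensing or exocytosis gene was past 1.5-fold, whereas 3 potassium channel genes were higher and 6 lower of 20, and 2 calcium channel genes (Cacna2d2 and Cacna1h) were lower.

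The genes whose pattern was most like that of each member were taken over the 8 sums by Pearson's r among 4085 genes, as a description in which the points share 2 libraries and 4 gates. For Trpm5 they were Atf5 (r = 0.997) and Fam151a (0.997), with 248 genes above 0.9. Fam151a was at 119 and 133 in β cells and at 0.817 to 3.402 elsewhere. Scn3a was most like Ucp2 (0.993) and Rbm39 (0.993), and Scn9a was most like Gpx1 (0.984) and Fam155a (0.968), the latter at 20.4 and 31.3 in virgin and multipara β cells. For Kcnk16 they were Bag5 (0.957) and Pnn (0.942). Kcnj11 was most like Spata7 (0.996) and Man2a1 (0.992), Abcc8 like Gm11837 (0.987) and Sbds (0.980), Cacna1a like Krtap17-1 (0.952) and Zfp612 (0.952), Cacna1c like Rad23b (0.973) and Kctd20 (0.968), and Cacna1d like Ubr3 (0.972) and mt-Co2 (0.970). Among the members themselves, r was 0.98 for Scn3a with Kcnj11 and −0.97 for Trpm5 with Scn3a.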

How the data were processed

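The submitters' processing notes name Cell Ranger 3.1.0, Seurat 3.0 and the builds GRCm38 and mm10. The libraries were made with a 3′ droplet kit, in which reads mark the end of a transcript. What the authors deposited are UMI counts for each barcode, not normalized. Barcodes were kept with over 200 and under 6000 genes, under 60000 UMIs and under 10% mitochondrial UMIs, after the study's methods. Scrublet in scanpy 1.11.5 marked 61 virgin and 44 multipara doublets, which were removed. UMIs were summed per gate and library. edgeR 4.0.16 (TMM, filterByExpr, quasi-likelihood, library as a block) compared types, and the 5 genes of the gates were not tested. Multipara and virgin were compared by ratio alone. Endothelial, immune and mesenchymal cells served as a background. Cells in no gate made up 9.10% of virgin and 10.6% of multipara cells. Gene positions came from the GENCODE annotation of GRCm38. The tests were tried on simulated data.

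The 9 members, the gene lists and the tests were chosen with earlier results of these data known. Named genes of each list were the 3 with the greatest size of log2 difference among those called between β and α or δ cells, and for each member the 2 genes of at least 20 CPM with the highest correlation of log2(level + 5). Some genes that this rule names are not reported here. Alternatives changed the scaling, filters, gates, doublets, depth, library block and tool (DESeq2 1.42.0). The split at 5000 UMIs and the Nupr1 split were added after the data were seen. Precision was set by UMI counts, from 2 to 9846 for a member in a gate.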

Additional observations from a re-analysis of the deposited data

Results flagged for a closer look

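Kcnk16 was lower in multipara β cells (log2 ratio −0.49, interval −0.57 to −0.42) and higher in multipara PP cells (0.26, interval 0.005 to 0.52), opposite directions under the same contrast. The difference between these ratios was not tested, since each group is 1 library. The PP value rests on 228 and 271 UMIs from 88 and 90 cells. It turned to −0.40 in cells thinned to 5000 UMIs and was 0.03 with every cell weighted equally, whereas the β value kept its sign in all 14 alternatives.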

How the results depend on the processing

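Of 54 differences of a member between cell types 31 were called, of which 26 kept their sign in all 19 alternatives and 12 were called in all 16 alternative tests. The sign of a called difference, or of a difference that an alternative called, turned in 6 cases: Abcc8 between β and α cells (0.0301 with hormone UMIs left out), Cacna1a between β and α cells (0.34) and β and δ cells (0.0341) with cells weighted equally, and Scn9a between β and α cells (−0.11), Kcnj11 between δ and PP cells (0.77) and Cacna1d between δ and PP cells (0.23) on plain CPM. In 53 further cases a difference called in neither setting changed sign, with a median size of 0.11. Counts over all genes moved by over 1.5 times in these cases. Plain CPM called 9309 genes between β and δ cells, 6706 between α and δ, 3293 between α and PP, and 7642 between δ and PP, where the medians shift. The 95% gate, which left 48 and 10 δ cells, called 2589 between β and δ, 1671 between α and δ, and 1182 between δ and PP. Thinned cells gave 3548 between β and δ, 1712 between β and PP, 2392 between α and δ, 564 between α and PP, and 782 between δ and PP. Thinned sums gave 2935 between β and α, 3292 between β and δ, 2702 between β and PP, and 2561 between α and δ. Both kinds of thinning remove UMIs. The main counts were 6744, 5569, 4404, 3981, 1806 and 2176. Genes past 1.5-fold between libraries numbered 470 in α, 923 in β, 448 in δ and 319 in PP cells. At 2-fold these were 115, 383, 53 and 30, without the filter on low counts 5265, 5671, 4689 and 5239, and in thinned cells 593 in β and 103 in PP cells. No paired analysis was possible because each group is 1 library, and leaving a library out left values within the other with no test. The main limits are 1 library a group, 88 and 90 PP cells, free RNA, and the low-UMI cells of the multipara β gate. The cell filter also removed more multipara than virgin β barcodes.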
